A study of Mus musculus with 26 samples.

Results

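Described here are 38 genes of the endoplasmic reticulum (ER) folding and export machinery, measured by RNA sequencing of aortas and mesenteric arteries from mice made hypertensive with angiotensin II (AngII). The genes were taken by symbol from a named list, drawn up with earlier results of these data known, and each was found among the 55416 gene identifiers of the aortic tables and the 55414 of the mesenteric tables. By role they were sorted into 9 lumenal chaperones and co-chaperones, 6 lectin chaperones and disulfide isomerases, 4 collagen folding proteins, 6 transcription factors of ER and amino acid stress, 4 translocon and degradation genes, and 9 genes of coat assembly, cargo export and retrieval. Ckap4, which shapes ER sheets, was placed in the last group although it has none of these roles by that description. All 38 passed the filter on low counts in both tissues.

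The mice were males of the C57BL6J background whose Sphk1 alleles were flanked by loxP sites, in the control groups as well. Sphk1 encodes sphingosine kinase 1, which makes the signalling lipid sphingosine-1-phosphate. Mice lacking Cre are written as wild type (WT), and mice with Cre under the promoter of Tagln, a smooth muscle gene, are called knockout (KO). In each tissue there were 3 groups: WT sham (n = 4), WT AngII (n = 4) and KO AngII (n = 5). AngII, a vasoconstrictor peptide, was given at 490 ng/kg/min for 14 days by a minipump implanted at 12 to 14 weeks of age. KO mice without AngII were not analysed here, which leaves the deletion to be read under AngII alone.

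Secreted and membrane proteins enter the ER through the Sec61 channel, where chaperones hold the nascent chain and disulfide isomerases form and reshuffle its cysteine bonds. Correctly folded cargo leaves in COPII-coated vesicles, ER residents are fetched back by KDEL receptors, and misfolded chains are exported for degradation. When unfolded protein accumulates, the unfolded protein response acts through the transcription factors Xbp1, Atf6 and Atf4 to raise chaperone and export genes. In the arterial wall, smooth muscle cells and fibroblasts send large amounts of collagen and elastic fibre protein along this route.

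Gene counts summed to between 23.5 M and 32.3 M in aortic libraries, and to between 17.5 M and 30.1 M in mesenteric ones. Sphk1, the check of the labels, was at 24.2, 22.9, 16.1 and 11.5 normalised CPM (counts per M library counts) in the WT AngII aortas and at 2.64, 1.85, 1.71, 3.29 and 3.03 in the KO AngII aortas, without overlap (log2 fold change -2.90 ± 0.262, edgeR adjusted p = 0.000460). The same held in the mesenteric arteries (log2 fold change -1.83 ± 0.195, edgeR adjusted p = 0.0101). All 10 smooth muscle markers had counts in every group, with a summed level of 18682 to 39535 CPM in the aortic libraries and 24902 to 55386 CPM in the mesenteric ones. Some mesenteric libraries also held pancreas acinar transcripts. The sum of 12 acinar markers ran from 24.3 CPM to 103820 CPM in WT AngII replicate 4. In the aorta it was at most 10.8 CPM, and Amy2a5 and Ptf1a had no count. By replicate the mesenteric sum was 43736, 16146, 47.8 and 13440 CPM in WT sham and 24.3, 181, 68.1 and 103820 CPM in WT AngII. In KO AngII it was 63.3, 29379, 508, 1030 and 69723 CPM, so it was not even across the groups. Between 0.572 and 0.745% of records were not aligned in aortic libraries and between 0.855 and 14.7% in mesenteric ones. The mesenteric libraries over 10% were WT AngII replicate 1 (12.0%) and KO AngII replicates 2, 3 and 4 (11.4, 14.7 and 14.2%). No mesenteric WT sham library was above 2.52%, so this share was not even across the groups. The labels do not say whether replicates came from separate animals or pools, so p-values measure the spread between these libraries.

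In the WT sham aorta the members covered a wide range of levels. Per kilobase of exon, Calr, encoding the calcium-binding lectin chaperone calreticulin, was the highest at 264 ± 23.1 CPM per kb (mean ± SD, n = 4). Rcn3, encoding a calcium-binding protein of the ER lumen, followed at 223 ± 32.6. Pdia3, the disulfide isomerase that works with calreticulin, stood at 200.4 ± 13.5, within 1 SD of Rcn3. Hspa5, the HSP70 chaperone BiP, was at 179 ± 12.6 and Hsp90b1, the HSP90 chaperone GRP94, at 164 ± 10.7, and these neighbours also differed by less than the sum of their SDs. The lowest of the 38 were Ddit3 at 9.87 ± 1.76, Pdia5 at 7.52 ± 0.968, Sdf2l1 at 7.39 ± 1.96 and Atf6 at 6.43 ± 0.343 CPM per kb.

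Promoter sequence is shown first for the chaperones, because several of them carry the ER stress response element (ERSE), the site through which NF-Y with Atf6 or Xbp1 is known to act. RefSeq promoters of build GRCm38.p6 (the counts use GRCm39) were available for 31 of the 38 members, and the 250 bases before the annotated start were searched on both strands. ERSE was searched as CCAAT, then any 9 bases, then CCACG. It was found in 7 of 31 members (22.6%), in 3 of 126 other pathway genes (2.38%) and in 35 of all 27025 genes searched (0.13%). A gene counted if any of its promoters searched held a match. The sites are written 5′ to 3′ on the strand of the motif, with its fixed letters in capitals and the 9-base spacer, which differs from gene to gene, in lower case.
Hspa5: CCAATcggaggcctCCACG
Hsp90b1, distal: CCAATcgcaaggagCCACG
Hsp90b1, proximal: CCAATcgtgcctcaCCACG
Dnajc3: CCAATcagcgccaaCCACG
Creld2: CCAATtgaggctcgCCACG
Calr: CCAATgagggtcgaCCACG
Canx: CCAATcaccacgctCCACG
Pdia6: CCAATgaaaggcggCCACG

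The site of Hspa5 ended 46 bases before the start and that of Pdia6 79 bases, while those of Dnajc3, Creld2, Canx and Calr lay at 86, 107, 126 and 143 bases. Hsp90b1 held a pair of them, at 193 and 88 bases. The windows of Hspa5 and Hsp90b1 are printed to show how the sites sit among further CCAAT boxes, on the strand of the gene and with the matches in capitals. The second match of Hsp90b1 reads in reverse complement. The first window is chr2:34771840-34772089 (plus strand) and the second chr10:86705445-86705694 (minus strand), both GRCm38.p6.
Hspa5 window: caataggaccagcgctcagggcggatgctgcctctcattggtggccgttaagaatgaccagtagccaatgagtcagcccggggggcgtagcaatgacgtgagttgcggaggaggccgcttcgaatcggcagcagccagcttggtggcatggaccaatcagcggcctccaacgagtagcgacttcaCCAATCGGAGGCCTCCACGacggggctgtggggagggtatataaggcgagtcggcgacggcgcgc
Hsp90b1 window: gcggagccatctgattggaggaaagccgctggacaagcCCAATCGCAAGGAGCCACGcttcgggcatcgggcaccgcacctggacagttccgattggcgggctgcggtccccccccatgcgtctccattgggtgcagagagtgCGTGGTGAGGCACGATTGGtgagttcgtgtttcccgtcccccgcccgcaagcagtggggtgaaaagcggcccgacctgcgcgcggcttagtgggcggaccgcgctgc

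A different element, the unfolded protein response element read here as TGACGTGG, was found in 2 of 31 members (6.45%), in 7 of 126 other pathway genes (5.56%) and in 0.603% of all genes searched. Both members export cargo or retrieve it: Sec24d, 18 bases before the start, and Kdelr3, 22 bases before it. Kdelr3 had the largest rise of all members after AngII in the aorta, and its window, chr15:79516158-79516407 (plus strand, GRCm38.p6), is shown with the match in capitals, in reverse complement.
Kdelr3 window: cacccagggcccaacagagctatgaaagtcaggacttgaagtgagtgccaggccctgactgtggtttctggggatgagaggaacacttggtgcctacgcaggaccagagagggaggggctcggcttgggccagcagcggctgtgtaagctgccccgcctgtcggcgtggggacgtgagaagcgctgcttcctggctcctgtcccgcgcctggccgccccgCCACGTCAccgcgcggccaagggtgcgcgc

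The amino acid response element TGATGNAA was in 0 of 31 members and 3.91% of all genes searched, and ERSE-II, searched as ATTGG, any 1 base and CCACG, in 0 of 31 and 0.037%. A match is a run of letters and was not tested as a bound site.

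The response to AngII in arteries with intact Sphk1 was read by comparing WT AngII with WT sham. In the aorta, 21 of the 38 members rose and 0 fell (edgeR adjusted p below 0.05), against 14.7% of 16863 genes called higher and 10.8% called lower, 25.5% in either direction. The rises were modest, from 1.197-fold to 1.89-fold. They took in all 4 collagen folding genes, 5 of 6 lectin chaperones and disulfide isomerases, 5 of 9 coat, cargo and retrieval genes, 3 of 9 lumenal chaperones, 2 of 4 translocon and degradation genes and 2 of 6 transcription factors. In 20 members every WT AngII library lay above every WT sham library, which was so for 12.2% of all genes. The median log2 fold change of the members was 0.35 and that of all genes -0.00052, and 37 members had a value above 0. With libraries scaled by size alone the median of all genes shifted to -0.13 and that of the members to 0.23. The calls over all genes then split into 1747 higher and 3729 lower instead of 2475 and 1826, and 14 members were called.

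**Figure D1:**
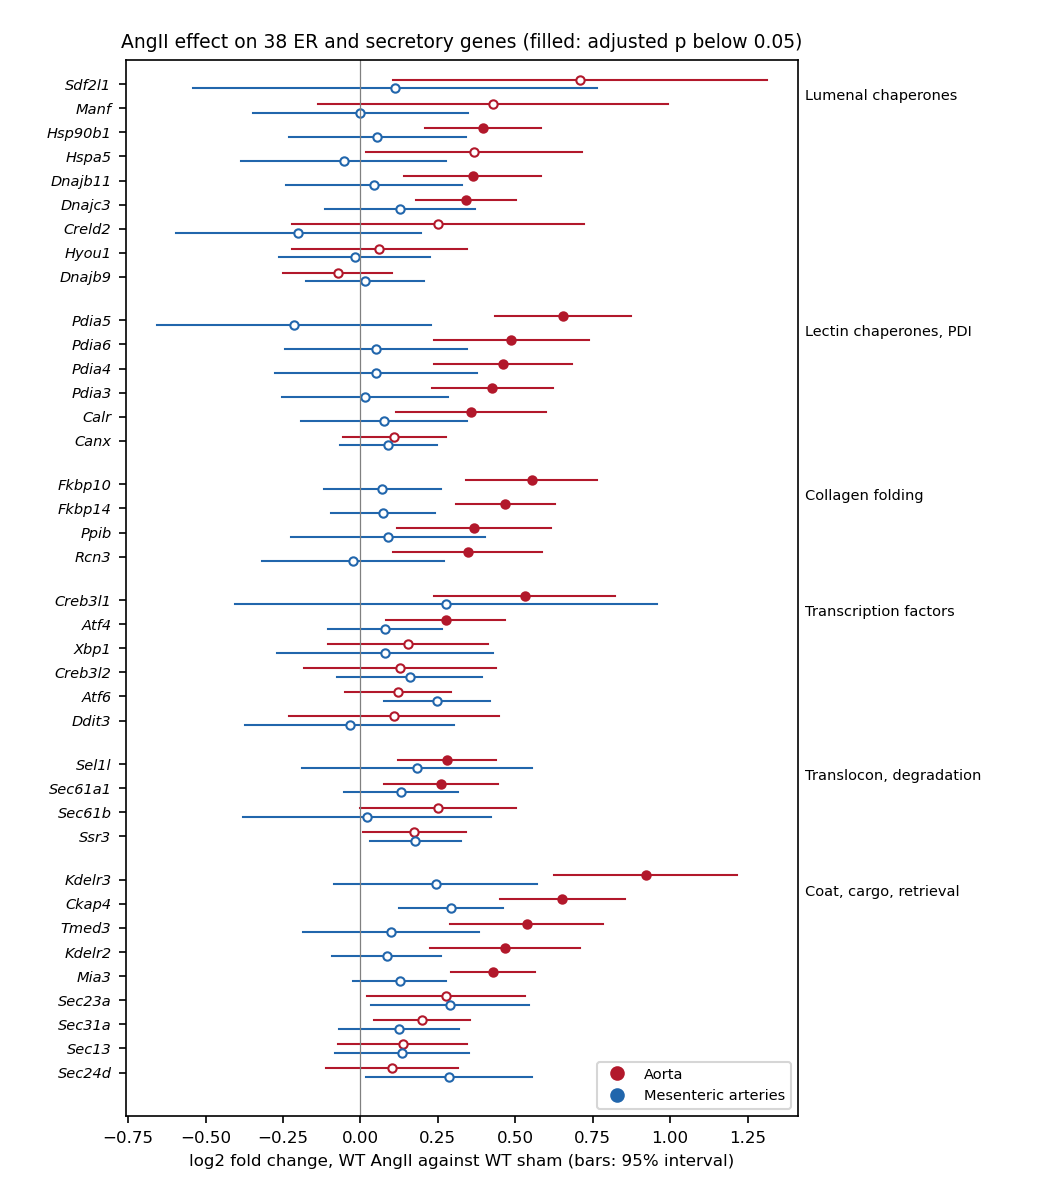
Log2 fold change of WT AngII against WT sham for each of the 38 genes in the aorta (red) and the mesenteric arteries (blue), with 95% intervals; genes are grouped by role, and filled points passed an adjusted p of 0.05. The 21 filled points are all aortic and all above 0, from Sec61a1 at 0.26 to Kdelr3 at 0.92.

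The lumenal chaperones were split between a few that rose and several that varied from library to library. Hsp90b1 was at 715, 649, 663 and 611 CPM in the WT sham aortas and at 799, 868, 939 and 865 CPM in the WT AngII aortas. Dnajc3, the HSP70 co-chaperone p58IPK, was at 172, 184, 169 and 153 CPM and at 205, 222, 208 and 223 CPM. In both genes the lowest AngII library lay above the highest sham library. Hsp90b1 rose by 0.40 ± 0.0877 on the log2 scale (SE; edgeR adjusted p = 0.00434) and Dnajc3 by 0.34 ± 0.0755 (edgeR adjusted p = 0.00439). Dnajb11, another co-chaperone of BiP, went from 74.1, 76.5, 71.6 and 64.6 CPM to 79.2, 88.8, 115 and 85.5 CPM, again without overlap, and rose by 0.36 ± 0.103 (edgeR adjusted p = 0.0187). Without WT sham replicate 4 its adjusted p was 0.0638.

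BiP itself did not pass the test. Hspa5 was at 755, 827, 747 and 697 CPM in the sham aortas and at 736, 940.05, 1369.9 and 852 CPM after AngII. The AngII library of replicate 1 lay below 3 of the 4 sham libraries, while that of replicate 3 lay far above all of them (log2 fold change 0.37 ± 0.164, edgeR adjusted p = 0.117). Without WT AngII replicate 1 the edgeR adjusted p of Hspa5 was 0.0385, and with limma voom and sample quality weights it was 0.0429.

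The small stress-inducible chaperones showed the same uneven pattern. Manf, a secreted ER protein that stabilises BiP with its clients, was at 56.4, 83.9, 63.1 and 54.2 CPM and then at 60.9, 79.6, 144 and 61.9 CPM. Sdf2l1, a partner of the BiP co-chaperones, was at 7.17, 11.1, 8.52 and 6.01 CPM and then at 10.9, 11.6, 21.9 and 9.12 CPM. Creld2, a further stress-inducible ER protein, was at 28.5, 37.5, 31.2 and 27.02 CPM and then at 29.002, 32.98, 57.5 and 28.4 CPM. In all 3 genes replicate 3 was by far the highest AngII library, the other AngII libraries lay among the sham libraries or near them, and the groups overlapped. Their log2 fold changes were 0.43 ± 0.260, 0.71 ± 0.280 and 0.25 ± 0.218, and none was called (edgeR adjusted p = 0.258, 0.0810 and 0.440). Sdf2l1 was called by DESeq2, with an adjusted p of 0.0327, and by edgeR without WT AngII replicate 4, with an adjusted p of 0.0426.

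Dnajb9, the co-chaperone ERdj4 and a target of Xbp1, was at 49.3, 58.1, 51.7 and 54.01 CPM in sham and 49.1, 54.04, 46.8 and 52.5 CPM in AngII aortas and was the only member with a value below 0 (log2 fold change -0.074 ± 0.0821, edgeR adjusted p = 0.551). Hyou1, the HSP110-type exchange factor of BiP, was at 134, 142, 132 and 122 CPM and 99.05, 140.4, 174 and 141 CPM (log2 fold change 0.061 ± 0.133, edgeR adjusted p = 0.778). The AngII libraries lay within or below the sham range for Dnajb9, and for Hyou1 replicate 1 lay below it and replicate 3 above it.

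Among the lectin chaperones and disulfide isomerases, Pdia5 had the largest change. It was at 19.4, 23.9, 22.2 and 17.9 CPM in the sham aortas and at 30.9, 33.7, 37.8 and 28.9 CPM after AngII. Pdia3 was at 632, 666, 649.5 and 569 CPM and then at 799.6, 821, 972 and 788 CPM. Pdia4 was at 133, 141, 139 and 121 CPM and then at 159, 178, 226 and 174 CPM. The groups did not overlap in any of these 3 isomerase genes. Pdia5 rose by 0.66 ± 0.103 on the log2 scale, 1.57-fold (edgeR adjusted p = 0.000356), Pdia3 by 0.43 ± 0.0914 and Pdia4 by 0.46 ± 0.104 (edgeR adjusted p = 0.00354 and 0.00501).

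Pdia6, which also acts on the stress sensor Ire1, was at 167, 177, 170.4 and 155 CPM and then at 210.2, 214, 308 and 206 CPM. Calr was at 747, 827, 793 and 674 CPM and then at 876, 928, 1218 and 870.4 CPM. Replicate 3 stood well above the other 3 AngII libraries in both genes, yet the lowest AngII library was still above every sham library. The log2 rise was 0.49 ± 0.117 for Pdia6 and 0.36 ± 0.114 for Calr (edgeR adjusted p = 0.00729 and 0.0321). The call of Calr was lost without WT AngII replicate 3 or without WT sham replicate 1, 3 or 4, with an adjusted p of up to 0.100. Canx, the membrane-bound relative of calreticulin, was at 456, 412, 437 and 422 CPM and 411, 473, 474 and 504 CPM, with overlap (log2 fold change 0.11 ± 0.0777, edgeR adjusted p = 0.335).

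All 4 collagen folding genes rose. Fkbp10, the prolyl isomerase FKBP65 of the collagen chaperone complex, was at 138, 150.3, 152 and 121 CPM in the sham aortas and at 195, 179, 239.9 and 208 CPM after AngII. Fkbp14, a second prolyl isomerase of the ER, was at 49.5, 46.2, 54.3 and 45.7 CPM and then at 67.6, 63.4, 64.6 and 75.05 CPM. Both separated sham from AngII completely. Fkbp10 rose by 0.55 ± 0.0991 and Fkbp14 by 0.47 ± 0.0745 on the log2 scale (edgeR adjusted p = 0.000984 and 0.000394). Ppib, cyclophilin B of the collagen prolyl 3-hydroxylation complex, went from 173, 226, 192 and 169 CPM to 243, 229.9, 302 and 204 CPM. Rcn3 went from 347, 452, 406 and 329.6 CPM to 464, 449, 587 and 451 CPM. In these 2 genes WT sham replicate 2 was the highest sham library and lay inside the AngII range. The rises were 0.37 ± 0.116 and 0.35 ± 0.112 (edgeR adjusted p = 0.0310 and 0.0345). Both calls were lost without WT AngII replicate 3 and without WT sham replicate 1, 3 or 4, with adjusted p values of up to 0.0953 and 0.112.

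Of the 6 transcription factors, Creb3l1 and Atf4 rose. Creb3l1, the membrane-tethered factor OASIS that drives collagen secretion genes, was at 66.4, 86.4, 86.3 and 62.1 CPM in the sham aortas and at 94.2, 98.4, 134 and 109 CPM after AngII. Atf4, the factor of the integrated stress response, was at 134, 154, 139 and 122 CPM and then at 145, 154, 182 and 183 CPM. Creb3l1 separated the groups, whereas for Atf4 WT sham replicate 2 lay above 2 of the 4 AngII libraries. Creb3l1 rose by 0.53 ± 0.137 and Atf4 by 0.28 ± 0.08998 on the log2 scale (edgeR adjusted p = 0.0112 and 0.0358). The call of Atf4 was lost without any 1 of WT AngII replicates 3 and 4 and WT sham replicates 1, 3 and 4, with an adjusted p of up to 0.120.

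The other 4 factors were not called. Xbp1 was at 131, 193, 145 and 136 CPM and 156, 161, 196 and 159.8 CPM, Atf6, the ER-tethered factor cleaved in the Golgi, at 62.6, 61.4, 57.8 and 55.8 CPM and 61.4, 66.4, 56.98 and 73.6 CPM. Creb3l2, a relative of Creb3l1 that controls Sec23a in cartilage, was at 343, 318, 352 and 301 CPM and 277, 396, 284 and 479 CPM. Ddit3, which encodes the stress factor CHOP, was at 16.6, 21.3, 14.7 and 15.05 CPM and 22.1, 14.6, 21.1 and 15.03 CPM. In Xbp1, Atf6 and Ddit3 at least 2 AngII libraries lay within the sham range, and in Creb3l2 2 lay below and 2 above all sham libraries. Their log2 fold changes were 0.15 ± 0.121, 0.12 ± 0.0807, 0.13 ± 0.145 and 0.11 ± 0.159 (edgeR adjusted p = 0.385, 0.301, 0.561 and 0.662). Counts per gene do not separate spliced from unspliced Xbp1 transcripts, or cleaved from full-length Atf6.

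At the translocon, Sec61a1, the channel subunit of Sec61, was at 172, 196, 186 and 171 CPM in the sham aortas and at 206, 199, 254 and 209 CPM after AngII. Sel1l, the scaffold of the degradation ligase complex, was at 142, 129, 138 and 133 CPM and then at 153, 169, 157 and 179.7 CPM. Neither gene overlapped between groups. Their rises were small, 0.26 ± 0.0861 and 0.28 ± 0.0744 on the log2 scale (edgeR adjusted p = 0.0385 and 0.0131). That of Sec61a1 was not called without KO AngII replicate 1, WT AngII replicate 3 or WT sham replicate 1, 3 or 4, with an adjusted p of up to 0.110. Ssr3, a subunit of the translocon-associated TRAP complex, was at 311, 295, 293 and 279 CPM and 313, 321, 325 and 369.8 CPM, and Sec61b, a small channel subunit, at 24.3, 30.9, 27.4 and 23.6 CPM and 30.4, 27.4, 40.5 and 28.2 CPM. Ssr3 separated the groups and Sec61b did not, and neither was called (log2 fold changes 0.17 ± 0.0776 and 0.25 ± 0.118, edgeR adjusted p = 0.116 and 0.134).

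The coat, cargo and retrieval group held the largest change. Kdelr3, a KDEL receptor that returns ER residents from the Golgi, was at 50.04, 62.5, 52.3 and 45.4 CPM in the sham aortas and at 104, 80.6, 129 and 84.8 CPM after AngII. Kdelr2, its more abundant relative, was at 94.9, 127, 115 and 98.9 CPM and then at 145, 132, 182 and 143 CPM. For both receptors even the lowest AngII library was above the highest sham library. Kdelr3 rose by 0.92 ± 0.139 on the log2 scale, 1.89-fold (edgeR adjusted p = 0.000282), and Kdelr2 by 0.47 ± 0.113 (edgeR adjusted p = 0.00753).

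Ckap4, a membrane protein that shapes ER sheets, was at 138, 141, 148 and 123 CPM and then at 192, 191, 232 and 248 CPM. Mia3, the cargo receptor TANGO1 that loads procollagen into COPII carriers, was at 123, 115, 118 and 113 CPM and then at 168, 159, 145 and 159 CPM. Tmed3, a p24 cargo receptor, was at 86.2, 118, 99.3 and 84.4 CPM and then at 141, 125, 171 and 126 CPM. The 3 genes separated the groups completely, and Mia3 did so with the least scatter (aortic means of 117 ± 4.59 and 158 ± 9.40 CPM, SD, n = 4 each). The rises were 0.65 ± 0.0943 for Ckap4, 0.43 ± 0.0638 for Mia3 and 0.54 ± 0.116 for Tmed3 (edgeR adjusted p = 0.000195, 0.000240 and 0.00368).

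The 4 COPII coat subunits were not called. Sec31a, of the outer coat, was at 299, 295, 304 and 273 CPM and 307, 318, 355 and 363 CPM, with all AngII libraries above the sham ones (log2 fold change 0.20 ± 0.0729, edgeR adjusted p = 0.0594). It was called by DESeq2, with an adjusted p of 0.0142. Sec23a, the inner coat subunit that activates the GTPase Sar1, was at 123, 104, 128 and 108 CPM and 129, 140.04, 113 and 179 CPM. Sec24d, a cargo-binding inner coat subunit, was at 261, 252, 278 and 245 CPM and 243, 273, 253 and 345 CPM, and Sec13, of the outer coat, at 84.9, 94.5, 85.4 and 78.03 CPM and 79.6, 84.3, 115 and 98.2 CPM. In Sec23a, Sec24d and Sec13 the groups overlapped (log2 fold changes 0.27 ± 0.120, 0.10 ± 0.0994 and 0.14 ± 0.0979, edgeR adjusted p = 0.107, 0.493 and 0.339). Sec23a was called without WT AngII replicate 3, with an adjusted p of 0.0283.

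**Figure D2:**
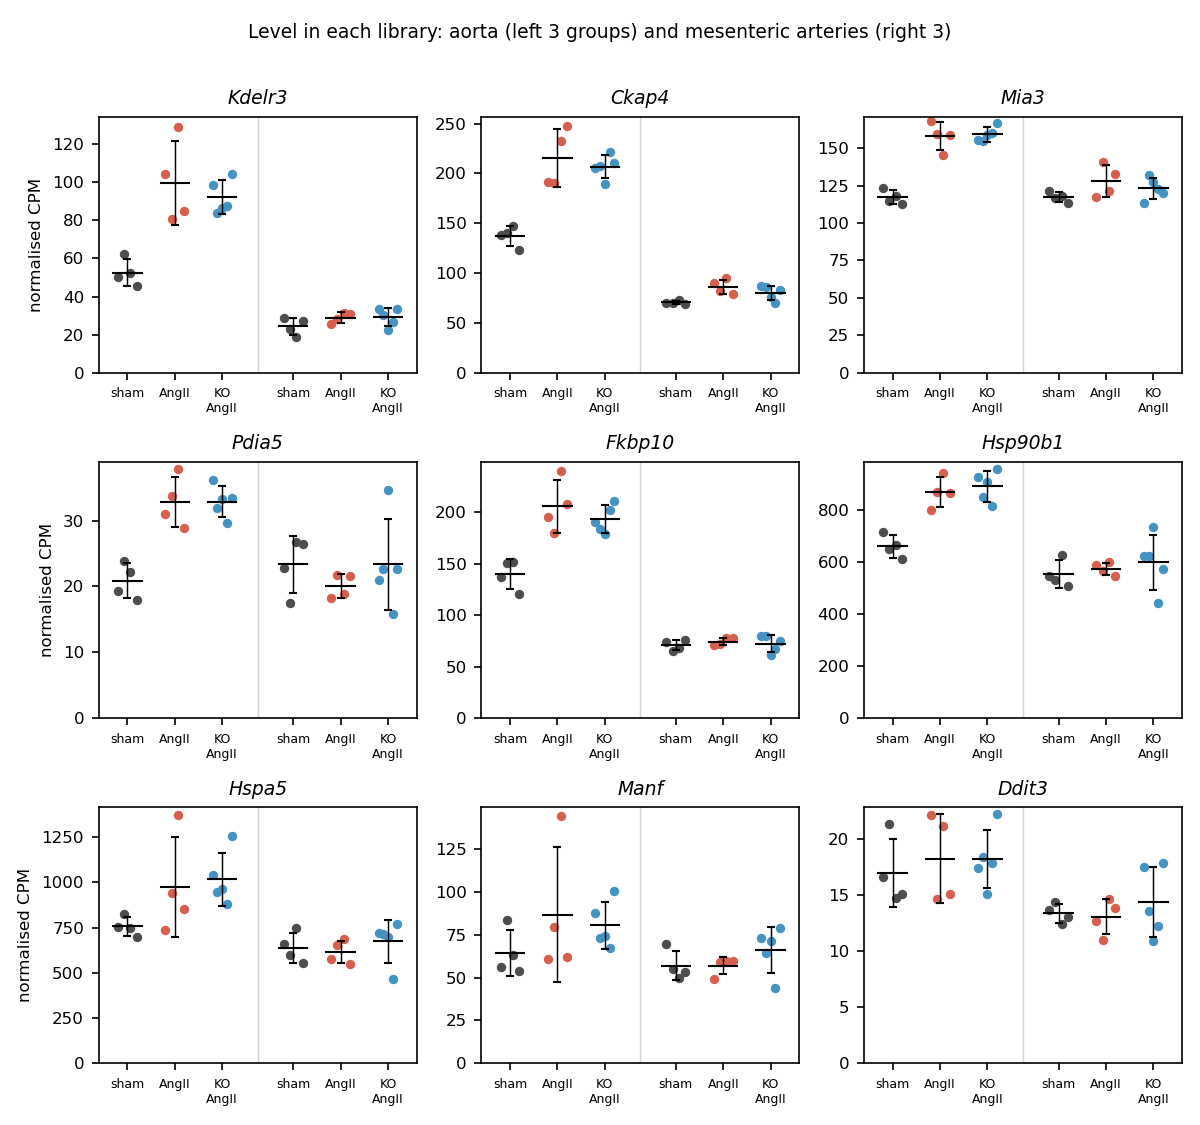
Normalised CPM of 9 members in each library (points), with group means (bars) and SD (whiskers), in the aorta on the left and the mesenteric arteries on the right of each panel; values are normalised within each tissue. In the aorta Kdelr3, Ckap4, Mia3, Pdia5, Fkbp10 and Hsp90b1 lie higher in every AngII library than in every sham library, while Hspa5, Manf and Ddit3 overlap.

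Members were also split by promoter element. Of the 7 with an ERSE match, 4 rose in the WT AngII aorta (median log2 fold change 0.36). Of the 24 others with a promoter sequence 13 rose (median 0.31). The sites printed for Hspa5, Creld2 and Canx belong to genes that were not called there. In KO AngII aortas against sham 4 of 7 and 15 of 24 rose (medians 0.43 and 0.31). In sham mesenteric arteries against sham aorta 3 of 7 and 17 of 24 were called lower (medians -0.34 and -0.41). These splits were not tested.

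Further genes of the same machinery were read from a list of 149, of which 148 matched an identifier and 144 were tested in the aorta. Of these, 53 rose (36.8%) and 3 fell (2.08%), with a median log2 fold change of 0.20, beside 14.7% and 10.8% of all genes. Among 26 other folding factors 15 rose (57.7%) and 0 fell, led by the calcium-binding Rcn1 (0.83 ± 0.112), the prolyl isomerase Fkbp9 (0.48 ± 0.0719) and Fkbp11 (1.19 ± 0.203), a prolyl isomerase of secretory cells. Of 46 other coat, cargo and retrieval genes 18 rose (39.1%) and 1 fell. Sec16b, an organiser of ER exit sites, rose by 1.60 ± 0.172, from 17.2 ± 2.16 to 52.1 ± 15.3 CPM, the cargo lectin Lman1 by 0.63 ± 0.0716 and the COPII GTPase Sar1a by 0.42 ± 0.0687, while Sec31b fell by 0.53 ± 0.138. With the fibroblast level as a covariate the value of Sec31b was 0.046.

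In the degradation list 7 of 20 rose (35%), with the lectin-like Edem1 (0.43 ± 0.0791), Os9 (0.39 ± 0.0803) and Erlec1 (0.31 ± 0.0623) in front, and 1 fell, Ufd1, a cofactor of the Vcp segregase (by 0.20 ± 0.0655). In the translocon and glycosylation list 5 of 29 rose and 0 fell, and that share of 17.2% was near the 14.7% of all genes. Among them were Ostc (0.43 ± 0.0954), Rpn1 (0.41 ± 0.0958) and Ssr2 (0.51 ± 0.119), the last with a value of -0.024 under the fibroblast covariate. Of 23 stress sensors and targets 8 rose (34.8%), including the chromatin-associated stress protein Nupr1 by 1.18 ± 0.142, Sesn2 by 0.62 ± 0.128 and Creb3l3 by 2.77 ± 0.510 from a low level of 0.289 ± 0.168 CPM. Trib3, a target of CHOP, was the 1 gene of that list that fell, by 0.59 ± 0.2004 (edgeR adjusted p = 0.0436), and this call and that of Ufd1 were lost in some fits that left out 1 library (highest adjusted p 0.136 and 0.0976). The edgeR adjusted p of the other genes named lay between 3.47e-05 and 0.0115.

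Markers of other cell types moved with AngII in the aorta. The sum of 10 fibroblast markers was 7457 to 9037 CPM in the WT sham libraries, 21548 to 49613 CPM in the WT AngII and 23868 to 44868 CPM in the KO AngII libraries. These 10 include the collagen genes Col1a1 and Col3a1, whose products are cargo of this route. Their level is therefore not a measure of cell number alone. The sum of 10 macrophage and monocyte markers was 649 to 805, 887 to 1133 and 1075 to 1249 CPM, and all 10 markers of both lists had counts in each group. Of the fibroblast markers 6 were called higher and 1 lower in WT AngII and 7 higher in KO AngII, and of the macrophage markers 9 were called higher in each. Plasma cells, which are rich in ER chaperones, had a summed level over 10 markers of 64.9 to 73.4 CPM in sham, 73.6 to 216 CPM in WT AngII and 109 to 166 CPM in KO AngII aortas, with 1 and 2 of 8 tested markers called higher. The sum of 12 B and T lymphocyte markers was 10.8 to 18.5, 20.4 to 52.4 and 37.7 to 45.6 CPM, with 1 and 2 of 11 tested markers called higher. For these 4 lists the sums of sham and AngII libraries did not overlap, for plasma cells by 73.4 against 73.6 CPM. In mean log2 CPM, the level used for covariates, fibroblast and macrophage markers did not overlap either. For these, marker level and group cannot be told apart. On that scale sham and WT AngII overlapped for plasma cells (-0.73 to 0.0011 and -0.63 to 1.52) and lymphocytes (-1.99 to -0.56 and -1.32 to 0.26). The sum of 10 smooth muscle markers was lower, at 31639 to 39535, 18682 to 35646 and 19100 to 32740 CPM with overlap, and 3 and 5 of 10 markers were called lower. The part of the plasma cell, lymphocyte and smooth muscle levels in the result was not tested. With the fibroblast level as a covariate 4 members and 1013 genes in all were called, and with the macrophage level 0 members and 120 genes, in WT AngII against sham, both covariates chosen after the data had been seen. The median log2 fold change of the members was 0.22 and 0.35 in those fits, and Ppib, called above, had a value of -0.10 with the fibroblast covariate. In bulk RNA, more cells of a kind and more RNA per cell cannot be told apart.

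Whether Sphk1 in smooth muscle altered the response was read by comparing KO AngII with WT AngII. In the aorta 0 of 38 members were called by edgeR, against 0.00593% of all genes, and 0 by DESeq2 or limma voom. At an unadjusted p below 0.05 there was 1 member, Creb3l1, against 3.61% of all genes. The smallest edgeR adjusted p among the members was 0.981, and in 0 members did the groups separate, against 0.48% of genes above and 0.486% below. In 35 of the 38 members the 95% interval of the log2 fold change lay within a 1.5-fold change in either direction, as for 65.6% of all genes. The median log2 difference was -0.00051. Of the 144 other pathway genes 0 were called by edgeR, with 0 at an unadjusted p below 0.05.

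Creb3l1 was at 85.3, 89.2, 70.7, 96.9 and 96.2 CPM in the KO AngII aortas, with 3 of 5 libraries below the lowest WT AngII library at 94.2 CPM and 3 of 5 above the highest sham library at 86.4 CPM (log2 fold change against WT AngII -0.31 ± 0.129, 95% interval -0.59 to -0.035, edgeR adjusted p = 0.981). Atf4 was at 143, 153, 143, 157 and 147 CPM (log2 fold change -0.16 ± 0.0851) and Dnajc3 at 237, 215, 233, 244 and 254 CPM (log2 fold change 0.14 ± 0.0716). For these genes the KO and WT AngII libraries overlapped. Kdelr3, the largest responder, was at 98.7, 83.97, 86.4, 87.3 and 104 CPM, inside the WT AngII range of 80.6 to 129 CPM, and Ckap4 at 205, 207, 189.6, 221 and 210.2 CPM, where the WT AngII range was 191 to 248 CPM.

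The widest intervals belonged to the scattered chaperones. Manf was at 87.5, 72.9, 74.3, 67.1 and 101 CPM (95% interval of the log2 difference -0.64 to 0.43), Sdf2l1 at 16.9, 12.4, 13.1, 9.52 and 17.4 CPM (-0.51 to 0.62) and Creld2 at 43.3, 34.6, 36.2, 28.5 and 45.6 CPM (-0.42 to 0.47). None of their KO libraries reached replicate 3 of the WT AngII group. Hspa5 was at 1039, 946, 963, 881 and 1256 CPM, inside the WT AngII range of 736 to 1369.9 CPM (log2 difference 0.062 ± 0.155, edgeR adjusted p = 0.986).

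**Figure D3:**
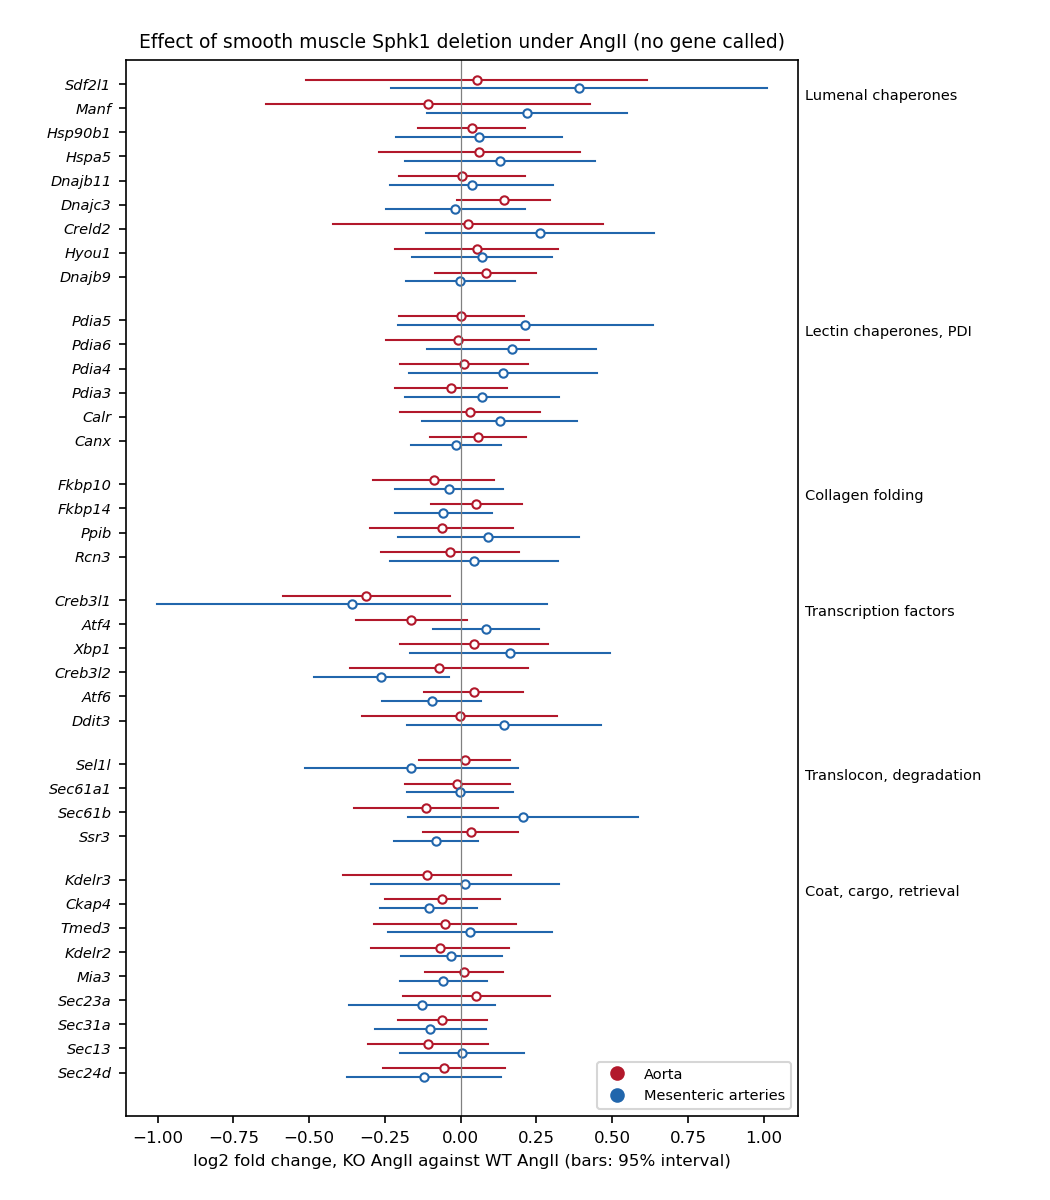
Log2 fold change of KO AngII against WT AngII for the 38 genes in the aorta (red) and the mesenteric arteries (blue), with 95% intervals and open points, since none was called. Points lie on both sides of 0, and the aortic median is -0.00051.

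KO AngII aortas were also compared with the same WT sham aortas, so this comparison shares its controls with that of WT AngII and is no separate evidence. Here 22 members rose and 0 fell, against 16.6% of genes called higher and 30.8% in either direction, and 21 members separated the groups, against 16.8% of genes. The median log2 fold change was 0.32 and all 38 values were above 0. Kdelr3 rose by 0.81 ± 0.133, Pdia5 by 0.66 ± 0.0985, Ckap4 by 0.59 ± 0.0901 and Fkbp14 by 0.52 ± 0.0711, beside 0.92, 0.66, 0.65 and 0.47 in WT AngII (edgeR adjusted p = 0.000417, 0.000194, 0.000225 and 9.72e-05). Scaled by library size alone, 16 members were called, and all genes split into 2192 higher and 4075 lower calls instead of 2796 and 2401. With the fibroblast level as a covariate 3 members were called and the median of the members was 0.13, and with the macrophage level 0 members and 1 gene in all, with a median of 0.35.

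Against sham, 19 members were called in both AngII groups. Creb3l1 and Atf4 were called only in WT AngII, where the KO values against sham were 0.22 ± 0.130 and 0.11 ± 0.0855. Sec23a (0.33 ± 0.114), Sdf2l1 (0.76 ± 0.268) and Ssr3 (0.21 ± 0.0738) were called only in KO AngII (edgeR adjusted p = 0.0410, 0.0459 and 0.0451), and all 3 calls were lost in some fits that left out 1 library, as were those of Ppib, Rcn3 and Sec61a1. With the fibroblast covariate Sdf2l1 and Ppib changed sign in KO AngII, to -0.29 and -0.19. Their KO libraries stood at 147, 127, 151, 154 and 148 CPM for Sec23a, at 339, 317, 328, 344 and 372 CPM for Ssr3, and for Sdf2l1 at the values given above. The difference between KO and WT AngII was not called for any of these 5 genes, as given above. Hspa5 lay above every sham library in all 5 KO libraries and just missed the threshold (0.43 ± 0.156, edgeR adjusted p = 0.05002), and DESeq2 called it, with an adjusted p of 0.0197. Canx also separated the groups without a call, at 492, 463, 497, 474 and 496 CPM (0.17 ± 0.0739, edgeR adjusted p = 0.102).

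The remaining called members had KO aortic values close together. Hsp90b1 was at 926, 848, 905, 813 and 958 CPM, Pdia3 at 874, 809, 825, 765 and 861 CPM and Calr at 1039.6, 948, 1018, 923 and 1045 CPM. All of these lay above every sham library. Fkbp10 was at 191, 184, 179, 202 and 211 CPM and Mia3 at 155, 154, 159, 160.2 and 167 CPM, with log2 rises against sham of 0.46 ± 0.0945 and 0.44 ± 0.0609 (edgeR adjusted p = 0.00188 and 0.000104). Pdia4 was at 173 to 212 CPM, Pdia5 at 29.6 to 36.2 CPM, Pdia6 at 212 to 255 CPM and Dnajb11 at 84.7 to 99.3 CPM over the 5 KO libraries. Tmed3 ran from 127 to 146 CPM, Kdelr2 from 128 to 160.1 CPM, Fkbp14 from 66.6 to 74.2 CPM, Sel1l from 152 to 183 CPM and Sec61a1 from 199 to 226 CPM. None of these ranges touched the sham values. Ppib and Rcn3, at 222 to 251 and 442 to 504 CPM, overlapped with sham as they had in WT AngII. The lowest rise among the called members was that of Ssr3 and the highest that of Kdelr3, 1.15-fold to 1.75-fold.

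Beside Manf, Creld2, Hspa5 and Canx, given above, 10 members were without a call in either AngII group. In the KO aortas Dnajb9 was at 49.7 to 62.1 CPM, Hyou1 at 132 to 169.7 CPM and Sec61b at 27.04 to 31.8 CPM. Xbp1 was at 156 to 203 CPM, Atf6 at 61.9 to 72.1 CPM, Creb3l2 at 311 to 377 CPM and Ddit3 at 15.1 to 22.2 CPM. Of these 7 genes all overlapped with sham. The coat subunits Sec31a, Sec24d and Sec13 were at 317 to 331, 254 to 284 and 85.8 to 91.05 CPM, and of the 3 only Sec31a lay above sham in every library (0.14 ± 0.0693, edgeR adjusted p = 0.148).

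Of the 144 other pathway genes tested, 53 rose (36.8%) and 4 fell (2.78%) in the KO AngII aortas against sham. Rcn1 (0.91 ± 0.107), Lman1 (0.66 ± 0.0685) and Sec16b (1.69 ± 0.167) were again in front of their lists. Further named genes were Spcs3, a signal peptidase subunit (0.38 ± 0.0662), Magt1, a subunit of the oligosaccharyltransferase (0.31 ± 0.0749) and Eif2ak3, the stress sensor PERK (0.55 ± 0.0949). Cdnf, a relative of Manf, fell by 0.47 ± 0.164, Ufd1 by 0.26 ± 0.0620, Sec31b by 0.48 ± 0.130 and the p24 protein gene Tmed4 by 0.24 ± 0.0718 (edgeR adjusted p = 0.0428, 0.00552, 0.0120 and 0.0180). The call of Cdnf was lost in 8 of 13 fits with 1 library left out (adjusted p up to 0.0985). With the fibroblast level as a covariate Tmed4, Sec31b and Eif2ak3 changed sign, to 0.0043, 0.15 and -0.020, and with the macrophage level Tmed4 did, to 0.013.

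**Figure D4:**
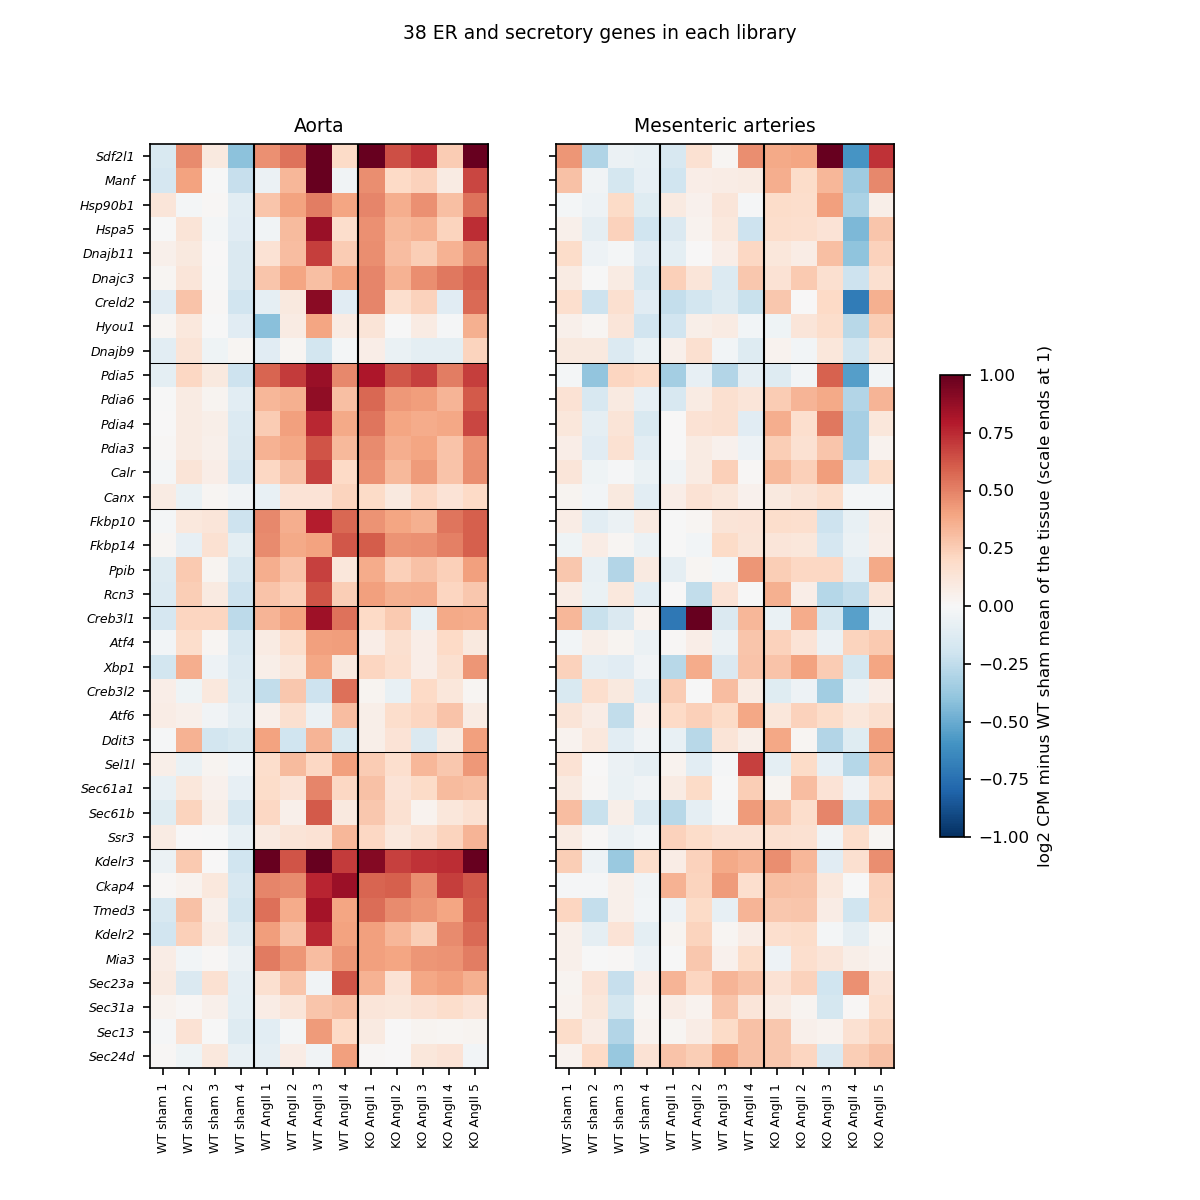
Log2 CPM of each of the 38 genes in each library minus the WT sham mean of its tissue (colour scale ending at 1), with genes in rows by role and libraries in columns by group; left, aorta, right, mesenteric arteries in the same gene order. The aortic AngII and KO AngII columns have medians of 0.21 to 0.56 above sham and WT AngII replicate 3 is the highest, while the mesenteric columns lie between -0.18 and 0.20.

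Libraries of a group differed in level across many members at once. In the WT AngII aortas replicate 3 was the highest of the 4 libraries for 23 of 38 members, and its median log2 distance from the sham mean was 0.56, beside 0.21, 0.29 and 0.32 in replicates 1, 2 and 4. WT sham replicate 4 was the lowest sham library for 31 members. The 5 KO AngII libraries had medians of 0.41, 0.25, 0.27, 0.28 and 0.45, with replicate 5 the highest for 22 members. The median coefficient of variation over members was 14.9% in WT AngII, 7.76% in WT sham and 6.75% in KO AngII aortas, and in WT AngII it reached 45.5% for Manf, 43.0% for Sdf2l1 and 37.3% for Creld2. Leaving out WT AngII replicate 3 gave 17 called members in place of 21, and leaving out WT sham replicate 4 gave 15. Of the 21 calls, 15 held with each of the 13 libraries left out in turn.

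In the mesenteric arteries 0 of 38 members were called after AngII by edgeR, against 0.183% of 17513 genes. At an unadjusted p below 0.05 there were 5 members, all higher: Ckap4, Atf6, Ssr3, Sec23a and Sec24d, against 5.48% of all genes. In the same 5 members the WT AngII libraries all lay above the sham libraries, as in 4.53% of genes, and in 0 members did they all lie below, as in 4.23% of genes. The median log2 fold change of the members was 0.083 and that of all genes -0.00037. In 34 members the 95% interval lay within a 1.5-fold change, as for 52.9% of all genes. The widest interval reached from -0.41 to 0.96 on the log2 scale, for Creb3l1.

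Ckap4 was at 70.2, 70.2, 73.3 and 68.8 CPM in the sham mesenteric arteries and at 89.8, 82.4, 94.8 and 79.3 CPM after AngII, with the narrowest sham spread of the members (log2 fold change 0.29 ± 0.0775, edgeR adjusted p = 0.198). DESeq2 and limma voom called this 1 member, with adjusted p values of 0.0261 and 0.0416. Atf6 was at 56.4, 54.1, 43.4 and 53.1 CPM and then at 59.2, 60.7, 58.7 and 67.4 CPM, and Ssr3 at 265, 253, 240.3 and 246 CPM and then at 295, 286, 277 and 277 CPM. Sec23a was at 87.4, 94.2, 73.1 and 89.8 CPM and then at 109, 99.4, 108 and 105 CPM, and Sec24d at 127, 143, 95.2 and 137 CPM and then at 151, 147, 162 and 152 CPM. In Sec23a and Sec24d the separation was narrow, and WT sham replicate 3 was the lowest library. The log2 fold changes were 0.25 ± 0.0791, 0.18 ± 0.0676, 0.29 ± 0.117 and 0.29 ± 0.123 (edgeR adjusted p = 0.297, 0.383, 0.414 and 0.442).

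Chaperone differences between sham and AngII were small in these vessels, whose acinar marker level was uneven across the groups. Over the 9 lumenal chaperones the log2 fold change ran from -0.20 to 0.13, and over the 4 collagen folding genes from -0.024 to 0.089. Hspa5 was at 658, 598, 746 and 554 CPM and 576, 651, 684 and 549.9 CPM (log2 fold change -0.055 ± 0.152). Pdia5, which had the largest aortic rise of its role group, was at 22.7, 17.5, 26.8 and 26.4 CPM and 18.2, 21.8, 18.8 and 21.6 CPM, with overlap (log2 fold change -0.22 ± 0.204, edgeR adjusted p = 0.726). Sel1l was at 146, 133, 142 and 229 CPM after AngII. Its high value was in WT AngII replicate 4, the library with the highest acinar marker sum, and Creb3l1, at 14.5, 50.6, 21.6 and 30.01 CPM, was highest in replicate 2. With the acinar marker level as a covariate 0 members were called. Of 147 other pathway genes 0 were called by edgeR, with 25 at an unadjusted p below 0.05, 18 higher and 7 lower. Over all 17513 genes 1864 were below that p in either direction.

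Under AngII, deletion of Sphk1 gave 0 called members in the mesenteric arteries by edgeR, against 0.00571% of genes, and 0 by DESeq2 or limma voom. In 0 members did the groups separate, against 0.611% of genes above and 1.04% below. At an unadjusted p below 0.05 there was 1, against 4.98% of all genes. This was Creb3l2, at 316, 264, 328 and 281 CPM in WT AngII and 244, 255, 208, 254 and 278 CPM in KO AngII libraries, with overlap (log2 fold change -0.26 ± 0.102, edgeR adjusted p = 0.798). KO AngII replicate 4 was the lowest of its group for 24 members, among them Hspa5 at 466 CPM, where the other 4 KO libraries stood at 718, 714, 698 and 771 CPM. KO AngII replicate 3 had the highest Sdf2l1 and Pdia5, at 25.2 and 34.7 CPM. The sum of 10 plasma cell markers was 3592 CPM in that library and 3207 CPM in KO AngII replicate 1, against at most 868 CPM in the WT libraries. With the plasma cell marker level as a covariate 0 members were called.

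Against WT sham, KO AngII mesenteric arteries had 0 called members by edgeR, against 0.708% of genes, and 0 by DESeq2 or limma voom. Again 0 members separated the groups, against 3.22% of genes above and 3.68% below. Only Ckap4 had an unadjusted p below 0.05, against 19.1% of all genes. It was at 86.8, 86.4, 75.99, 70.4 and 82.7 CPM in KO AngII libraries, of which replicate 4 lay within the sham range (log2 fold change 0.19 ± 0.0736, edgeR adjusted p = 0.194). The median log2 fold change of the members was 0.11. Of 147 other pathway genes 0 were called in either comparison. At an unadjusted p below 0.05 there were 8 against WT AngII and 20 against WT sham, beside 4.98% and 19.1% of all genes.

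Whether the AngII effect differed between the vessels was tested as an interaction over all 26 libraries. In 2 members the mesenteric effect was lower than the aortic (edgeR adjusted p below 0.05), against 1.66% of 18520 genes called lower, 0.68% called higher and 2.34% in either direction. For Pdia5 the difference was -0.88 ± 0.228 on the log2 scale (edgeR adjusted p = 0.0401) and for Fkbp14 -0.41 ± 0.109 (edgeR adjusted p = 0.0498). In the aorta Fkbp14 had separated sham from AngII, and in the mesenteric arteries it was at 34.9, 37.7, 36.4 and 34.5 CPM in sham and 35.7, 35.3, 40.9 and 39.2 CPM in AngII libraries. Both calls were close to the threshold. That of Pdia5 was lost in 12 of 26 fits with 1 library left out (adjusted p up to 0.111), and that of Fkbp14 in 21 (up to 0.129). With library size alone, or without the filter on low counts, 0 members were called. The part of the uneven mesenteric acinar level in this interaction was not tested.

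A further 11 members had an unadjusted p below 0.05, all with the lower effect in the mesenteric arteries, which makes 13 with the called ones, against 9.08% of all genes lower at that p. Among them Mia3 differed by -0.31 ± 0.0860 and Fkbp10 by -0.50 ± 0.139 (edgeR adjusted p = 0.0544 and 0.0591), and Kdelr3 by -0.69 ± 0.219 (edgeR adjusted p = 0.0999). The mesenteric values of Kdelr3 were 28.7, 23.2, 18.6 and 27.3 CPM in sham and 25.4, 28.4, 31.3 and 30.7 CPM in AngII libraries, and those of Fkbp10 74.3, 65.7, 67.9 and 75.5 CPM and 70.7, 71.6, 77.5 and 77.7 CPM. Mesenteric sham and AngII libraries overlapped in both genes, which had not been so in the aorta. The median difference over members was -0.29, and over all genes -0.0095. Of 148 other pathway genes 5 were called, all lower: Rcn1 (-0.96 ± 0.145), Sec16b (-1.25 ± 0.258), Fkbp9 (-0.52 ± 0.128), Sar1a (-0.42 ± 0.101) and the cargo receptor Ergic3 (-0.52 ± 0.128). The edgeR adjusted p was 0.000698, 0.00945, 0.0305, 0.0275 and 0.0314, and the last 3 calls were lost in some fits that left out 1 library. The difference of the deletion effect between vessels was called for 0 members by edgeR, with 0 at an unadjusted p below 0.05 against 4.04% of all genes, and for 0 of all genes.

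In WT sham vessels the members stood lower in mesenteric arteries than in aorta. Of 38, 26 were called lower and 0 higher, against 17.7% of genes called lower and 38.4% in either direction, and 29 separated the tissues with every mesenteric library below every aortic one, against 19.3% of genes. The median log2 difference of the members was -0.39, beside 0.024 over all genes. By role, 8 of 9 coat, cargo and retrieval genes, 5 of 6 transcription factors, all 4 collagen folding genes, 4 of 6 lectin chaperones and isomerases, 3 of 9 lumenal chaperones and 2 of 4 translocon and degradation genes were lower. Of the 26 calls 20 held with each library left out in turn. That of Atf4 was lost in 16 of 26 such fits, of Ddit3 in 12, of Creb3l2 and Ppib in 4 each, of Dnajb9 in 3 and of Hyou1 in 2. The labels name no batch and do not say whether both tissues were prepared together. Any difference in library handling cannot be told apart from tissue.

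The largest difference was that of Creb3l1, with a joint normalised mean of 77.5 ± 12.999 CPM in the aorta and 23.3 ± 4.19 CPM in the mesenteric arteries (SD, n = 4 each; log2 difference -1.73 ± 0.260, edgeR adjusted p = 1.12e-05). Kdelr3 followed with 54.1 ± 7.21 and 23.6 ± 4.47 CPM (log2 difference -1.19 ± 0.157). Sec24d was at 267 ± 13.3 and 121 ± 20.9 CPM (-1.14 ± 0.119). These 3 genes, and Fkbp10 (-1.08 ± 0.0993) and Ckap4 (-1.05 ± 0.0895), were the 5 members with a log2 difference below -1 (edgeR adjusted p from 1.57e-09 to 1.12e-05).

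The general chaperones differed less. Calr had a log2 difference of -0.61 ± 0.117, Hsp90b1 of -0.35 ± 0.105 and Hspa5 of -0.34 ± 0.165, the last without a call (edgeR adjusted p = 0.000206, 0.0110 and 0.112). Mia3, at 123, 115, 118 and 113 CPM in the aorta and 121, 117, 118 and 113 CPM in the mesenteric arteries when each tissue was normalised alone, differed by -0.094 ± 0.0608 (edgeR adjusted p = 0.238). Only Pdia5 and Sdf2l1 had values above 0, 0.070 ± 0.161 and 0.36 ± 0.302, and neither was called. Among 148 other pathway genes 66 were lower and 9 higher, including lower levels of Ergic1 (-1.35 ± 0.154), Txndc5 (-0.72 ± 0.0936), Erlec1 (-0.61 ± 0.0731) and Stt3a (-0.63 ± 0.0622), and a higher level of Trib3 (1.44 ± 0.225, edgeR adjusted p = 1.75e-05). The fibroblast marker sum was 7457 to 9037 CPM in the sham aortas and 4515 to 7345 CPM in the sham mesenteric arteries, with 5 of 10 markers called lower and 1 higher. Other lists moved as well. The endothelial sum was 981 to 1119 CPM in the aorta and 3985 to 4288 CPM in the mesenteric arteries (9 of 10 markers called higher), and that of macrophages and monocytes 649 to 805 and 249 to 502 CPM (4 lower, 1 higher). Neuron and glia markers summed to 10.7 to 15.8 and 357 to 527 CPM (9 of 10 higher) and acinar markers to 3.97 to 9.10 and 47.8 to 43736 CPM (10 of 12 higher). Plasma cell markers summed to 64.9 to 73.4 and 168 to 339 CPM (5 of 9 tested higher) and gut epithelium markers to 14.9 to 16.8 and 28.0 to 71.8 CPM (7 of 10 higher). Of the adipocyte markers 4 of 10 were lower, and of the lymphocyte markers 2 of 12 were higher. The smooth muscle markers had 2 higher and 2 lower of 10. The part of these levels in the difference was not tested.

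**Figure D5:**
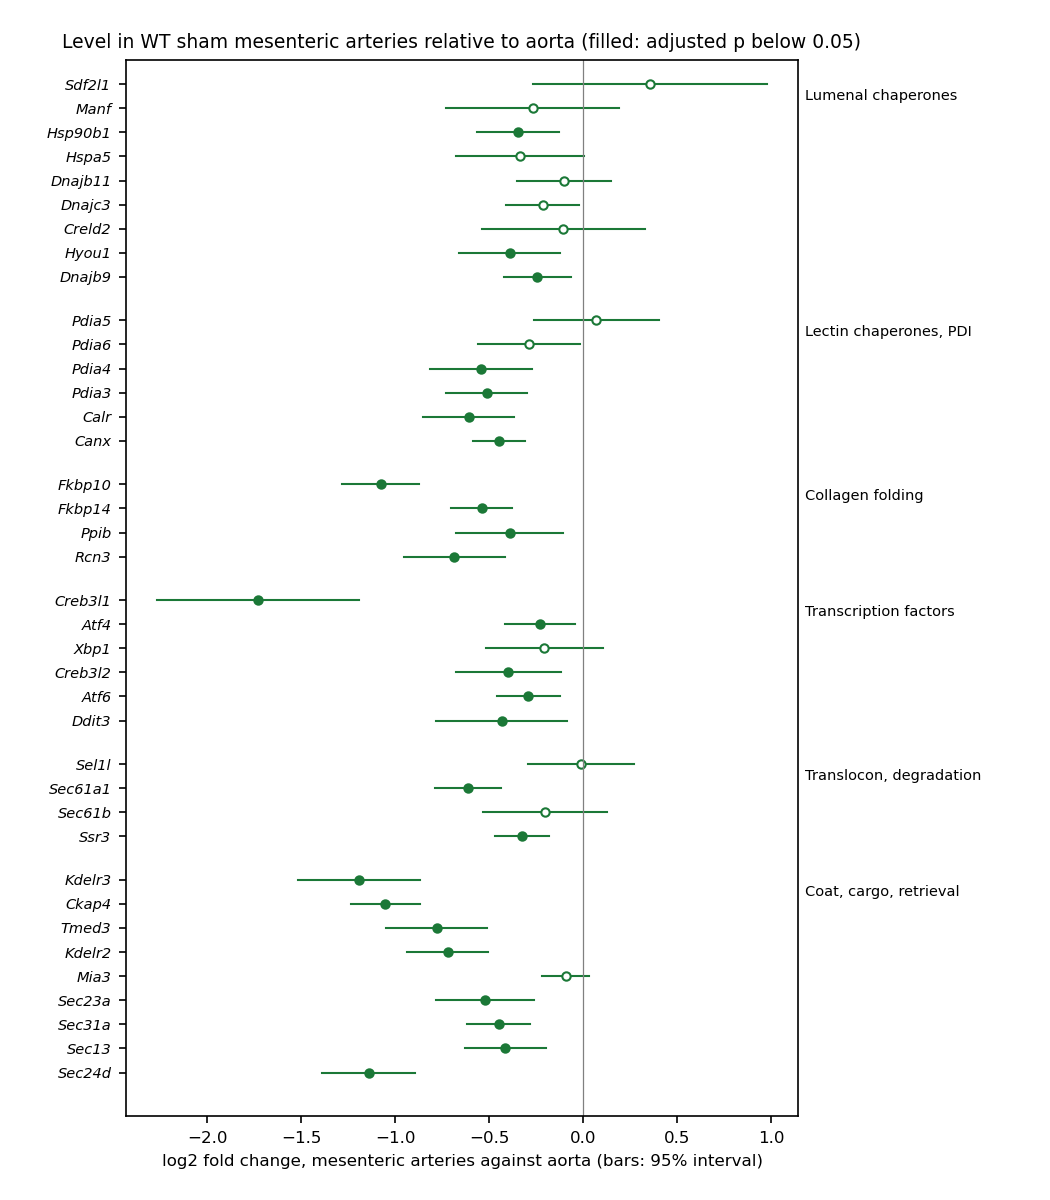
Log2 fold change of WT sham mesenteric arteries against WT sham aorta for the 38 genes, with 95% intervals, by role; filled points passed an adjusted p of 0.05. All 26 filled points lie below 0, with Creb3l1 at -1.73 the farthest.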

How the data were processed

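Poly(A) RNA libraries (NEBNext Ultra II Directional kit, paired reads) were counted per Ensembl gene by the authors. The deposited values are raw read counts, 1 table per library, made with cutadapt, HISAT2 and HTSeq on GRCm39 per the submitters' processing notes; tool versions, annotation release and strand option are not given in the sources used here. All 5 HTSeq summary lines were left out of library sizes and tests. Symbols were matched by Ensembl identifier to a reference table. Of 2 identifiers named Ddit3, ENSMUSG00000025408 was used, since the other held 0 counts. The 38 genes and the lists of other pathway genes and markers were chosen with earlier results of these data known.

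A single model per tissue held its 3 groups (edgeR 4.0.16, R 4.3.3): filterByExpr, TMM scaling and the robust quasi-likelihood F test, with Benjamini-Hochberg adjustment over all genes tested (16863 in the aorta, 17513 in the mesenteric arteries). Tissues were compared in a fit of all 26 libraries (18520 genes). A gene is called, or said to rise or fall, at an adjusted p below 0.05. After ± stands the SE of a log2 fold change or the SD of CPM values. CPM uses TMM library sizes of the tissue. Groups do not overlap when every library of 1 lies above every library of the other. Levels per kilobase use the exon union of GENCODE M21.

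Each member was described in full if it was among the 3 smallest adjusted p values of its role group in the aorta after AngII, called in another comparison or not called there, which took in all 38. From each list of other pathway genes up to 3 called genes per comparison were eligible; any further gene in a small count was chosen after its values were seen. The alternatives changed the test (DESeq2 1.42.0, or voom of limma 3.58.1 with sample quality weights), the scaling (RLE factors, or no factor beyond library size), the filter (none, or CPM 1 in 4 libraries), added the replicate number as a block or a marker level as a covariate, or left out libraries. Chi-square per degree of freedom between libraries of the same group ran from 8.41 to 157 over 22 aortic pairs and from 18.0 to 232 over 22 mesenteric pairs, so none was a copy. The fits were also run on counts simulated for each gene on its own. That run holds no shift shared by the genes of a library and does not test the results given here.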

Additional observations from a re-analysis of the deposited data

Results flagged for a closer look

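Within each group of 4 or 5 libraries, the highest or lowest library was set against the others by Dixon's test at the 95% level. Of 228 groups of a gene, tissue and condition, 13 held a library that stood apart. Chance flags about 1 in 20 groups, and the genes of 1 library are not independent of each other.

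In the aorta, WT AngII replicate 3 stood above the other 3 libraries for Creld2 (57.5 CPM), Calr (1218 CPM), Pdia6 (308 CPM), Rcn3 (587 CPM) and Xbp1 (196 CPM). KO AngII replicate 2 was low for Sec23a (127 CPM), and KO AngII replicate 1 was high for Sec13 (91.0 CPM). In the mesenteric arteries, WT AngII replicate 4 was high for Sel1l (229 CPM) and WT AngII replicate 1 low for Manf (49.3 CPM). KO AngII replicate 4 was low for Hspa5 (466 CPM), Dnajc3 (134 CPM) and Pdia6 (119 CPM), and KO AngII replicate 3 low for Sec24d (112 CPM).

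The interaction of AngII with tissue was called for Pdia5 and Fkbp14, with differences of -0.88 and -0.41 on the log2 scale (mesenteric minus aortic, edgeR interaction test, adjusted p = 0.0401 and 0.0498). The calls were lost in 12 and 21 of 26 fits with 1 library left out, and 0 members were called with the replicate block, with library size alone or without a filter.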

How the results depend on the processing

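The counts of called members in the aorta kept within 1.5 times of those reported with RLE factors, the filters, DESeq2, limma voom and the replicate block. They ranged from 14 to 23 for WT AngII against sham and from 16 to 26 for KO AngII against sham, the lowest with library size alone. With each library left out in turn they were 15 to 23 and 16 to 23, and 3256 to 4630 and 4174 to 5906 genes were called in all. Of the calls, 15 of 21 and 16 of 22 held throughout.

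Residuals of same-numbered libraries correlated from -0.289 to 0.343 within tissues over 24 pairs and from -0.118 to 0.133 between tissues over 13 pairs. Whether equal numbers in aorta and mesenteric arteries stand for 1 animal is not stated in the labels, and the number was not taken to pair libraries. With the replicate block 19 and 17 aortic members were called against sham, 0 in place of 2 for the AngII interaction with tissue, and 25 of 26 between sham tissues. Over all genes the replicate block gave 3 calls for KO against WT AngII in the aorta. In the mesenteric arteries it gave 8 for AngII, 0 for KO against WT AngII and 20 for KO AngII against sham. It gave 190 for the AngII interaction with tissue.

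The covariates for other cell types in the aorta, chosen after seeing the data, changed most. With the macrophage level 0 members were called against sham in either AngII group, and 120 genes in WT AngII and 1 in KO AngII. With the fibroblast level, whose markers include the collagen genes Col1a1 and Col3a1, 4 and 3 members and 1013 and 819 genes were called. With the macrophage covariate Tmed4 changed sign in KO AngII (0.013). With the fibroblast covariate the WT AngII values of Ppib (-0.10), Eif2ak3 (-0.073), Ssr2 (-0.024), Ergic3 (-0.12) and Sec31b (0.046) changed sign, and so did the KO AngII values of Sdf2l1 (-0.29), Ppib (-0.19), Eif2ak3 (-0.020), Ssr2 (-0.17), Sec31b (0.15) and Tmed4 (0.0043). The cause was not tested.

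In the mesenteric arteries DESeq2 and limma voom each called 1 member after AngII, Ckap4. Over all genes DESeq2 called 311 for AngII, 2 for KO against WT AngII and 1408 for KO AngII against sham, and limma voom 252, 0 and 479, in place of 32, 1 and 124. Library size alone gave 15 and 0 in the first 2, and the acinar covariate 14 in the first. The plasma cell covariate gave 0 in the second and 32 in the third. Leaving out WT AngII replicate 1 and KO AngII replicate 3 gave 0 in the second. Dropping those libraries in which over 10% of records were not aligned, chosen after seeing the data, gave 57 in the second and 289 in the third. That fit kept only replicates 1 and 5 of the mesenteric KO AngII group. With each library left out 8 to 116, 0 to 2 and 23 to 156 genes were called, and 0 members in every such fit. In the aorta DESeq2 called 6 genes between KO and WT AngII, and 1 to 2 were called with a library left out.

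For the AngII interaction with tissue DESeq2 called 5 members, limma voom 4, RLE factors 1, library size alone 0 and no filter 0, and 1 was called both without the 2 mesenteric libraries and without those over 10% not aligned. With each library left out 0 to 3 were called, and 227 to 639 genes. All genes gave 863 calls with DESeq2, 1260 with limma voom, 272 without a filter and 719 without the libraries over 10% not aligned, in place of 434. For the difference of the deletion effect DESeq2 called 15 genes and the fit without those libraries 11, and 0 were called in each fit with a library left out. Between sham tissues 21 to 28 members were called, and 6287 to 7595 genes.

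The 95% interval of the deletion effect lay within a 1.5-fold change for 35 aortic and 33 mesenteric members, against 65.6% and 57.0% of all genes. A difference of a size inside the interval of a gene remains possible.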
